A study of Mus musculus with 3 samples.

Results

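Cluster 7 of the single-cell atlas of the mouse iridocorneal angle and limbus was labelled ciliary epithelium by its marker genes Pcp4, Folr1, Aldoc and Scg5. Its members were the kept cells to which the deposited annotation gives cluster identity 7, matched by barcode to the count matrix of their library. There were 562 such cells among 26008 kept cells. They came from 3 libraries of dissociated angle and limbal tissue, each from a pool of 2 to 3 mice (4 to 6 eyes) aged 6 weeks, of both sexes according to the labels and of mixed strain after crossing to albino ICR mice. Both control libraries came from Angpt1 flox/flox mice without Cre. The single knockout library came from Angpt1 flox/flox;Wnt1Cre+ mice (Angpt1ΔNC), so every animal carried the floxed Angpt1 allele. Wnt1-Cre recombines in the neural crest and its derivatives, which do not include the neuroepithelium from which the ciliary epithelium forms. With 1 knockout library, genotype cannot be told apart from the pool of mice, the dissection or the run.

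The ciliary epithelium is a bilayer continuous with the iris and the retina. Its inner, nonpigmented layer and its outer, pigmented layer are joined by gap junctions and together secrete aqueous humour through the sodium pump, carbonic anhydrases, bicarbonate and chloride carriers and aquaporins. The nonpigmented layer also makes components of the vitreous and of the zonule. The iris epithelium is its forward extension, and the dilator muscle of the iris is formed by the contractile processes of pigmented iris epithelial cells.

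Control replicate 1 gave 316 of the cells, control replicate 2 gave 107 and the Angpt1ΔNC library gave 139. The cluster's share of the kept cells was 3.48% in control replicate 1 (exact Clopper-Pearson 95% interval 3.11 to 3.88), 1.05% in control replicate 2 (0.864 to 1.27) and 2.05% in Angpt1ΔNC (1.73 to 2.42). The knockout share lay between those of the controls, whose intervals did not overlap, so no shift with genotype could be read from it. The intervals cover counting error only. These cells summed to 2534788, 708774 and 1633087 UMIs in the same order, with median depths of 7949, 6826 and 9072 UMIs per cell against 6329.5, 6393.5 and 7444 over all kept cells of each library. Each value below, in that order, is the mean over cells of UMIs per 10000 in 1 library and so has no SD. The libraries shared 25, 14 and 13 cell barcodes pairwise among kept cells, but no barcode of a cluster 7 cell.

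Angpt1 (chr15:42424723-42676977, GRCm38), the ligand of the TEK receptor and the gene deleted here, was at 0.586 and 0.526 UMIs per 10000 in all other kept cells of the controls and at 0.00295 in those of Angpt1ΔNC. The knockout library was far below both controls outside the cluster, as its label states. In cluster 7 Angpt1 was at 0.0537, 0.0138 and 0.0221, with a UMI in 16 of 316 cells (5.06%, interval 2.92 to 8.09), 1 of 107 (0.935%, 0.0237 to 5.10) and 4 of 139 (2.88%, 0.790 to 7.20). The knockout value lay between the controls. The limbal and corneal epithelium (clusters 4 and 5), taken as background, had a UMI in 3 of 989, 5 of 1012 and 0 of 911 cells (for which up to 0.329% is allowed by the count), at median depths of 17717, 15168.5 and 15135 UMIs. After thinning every cell to 2000 UMIs the expected shares of positive cells were 1.16%, 0.355% and 0.507% in cluster 7 and 0.0340%, 0.0420% and 0 in the epithelium. The positive cells were therefore too few, at 1 and 4 cells, to tell control replicate 2 from Angpt1ΔNC.

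Sex-linked transcripts differed between the libraries as a whole, not in these cells alone. In all other kept cells Xist was at 0.000751, 0.000411 and 7.28. The label of both sexes was thus not borne out by Xist in either control library. The counts that follow are of cluster 7. Xist, which is transcribed from the inactive X chromosome of females, had 0 UMIs in both controls and 602 in Angpt1ΔNC, where 61 of 139 cells carried it. By Y-linked transcripts without Xist, 197, 66 and 44 cells were typed male, and 59 knockout cells but no control cell were typed female by Xist alone. Sex and genotype cannot be told apart in the comparison of all cells.

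The 4 marker genes were high in every library. Pcp4, a small calmodulin-binding protein, was at 12.9, 12.3 and 10.9 against 0.0521, 0.0620 and 0.0875 in all other kept cells. Folr1, a folate receptor, was at 9.13, 9.10 and 8.71 against 0.0644 to 0.112. Aldoc, a glycolytic aldolase, was at 5.00, 5.24 and 4.38, and Scg5, a chaperone of prohormone convertase 2, at 3.75, 2.27 and 1.49. At least 2 of the 4 were detected in 268 control replicate 1 cells (84.8%), 81 control replicate 2 cells (75.7%) and 124 knockout cells (89.2%), against 2.92%, 1.90% and 2.05% of the other kept cells. None was detected in 18, 17 and 13 cells. Since the clusters were drawn from these same transcripts, the levels describe the cluster and are no test of it.

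Ranking the genes detected in at least 25% of the cluster's cells in each library by fold over all other kept cells put Pcp4, Folr1 and Aldoc first, followed by Tst and Scg5. The eye-field regulators Lhx2, at 0.998, 0.851 and 0.739, and Pax6, at 1.09, 1.17 and 1.19, were also among the first 30, as was the sodium bicarbonate carrier Slc4a5, at 1.03, 1.03 and 1.36. Trpm1, a cation channel of pigment cells, was at 14.7, 13.2 and 12.2. Ptgds, the prostaglandin D2 synthase secreted into ocular fluids, was at 258, 226 and 327 against 46.4, 40.8 and 16.4 elsewhere. The last of the 30 was Acta2, smooth muscle actin, at 66.6, 54.9 and 32.5. The 30 also held Unc119, a lipid-binding protein of photoreceptors, at 6.78, 1.92 and 0.53, which was high in control replicate 1 above all.

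**Figure D1:**
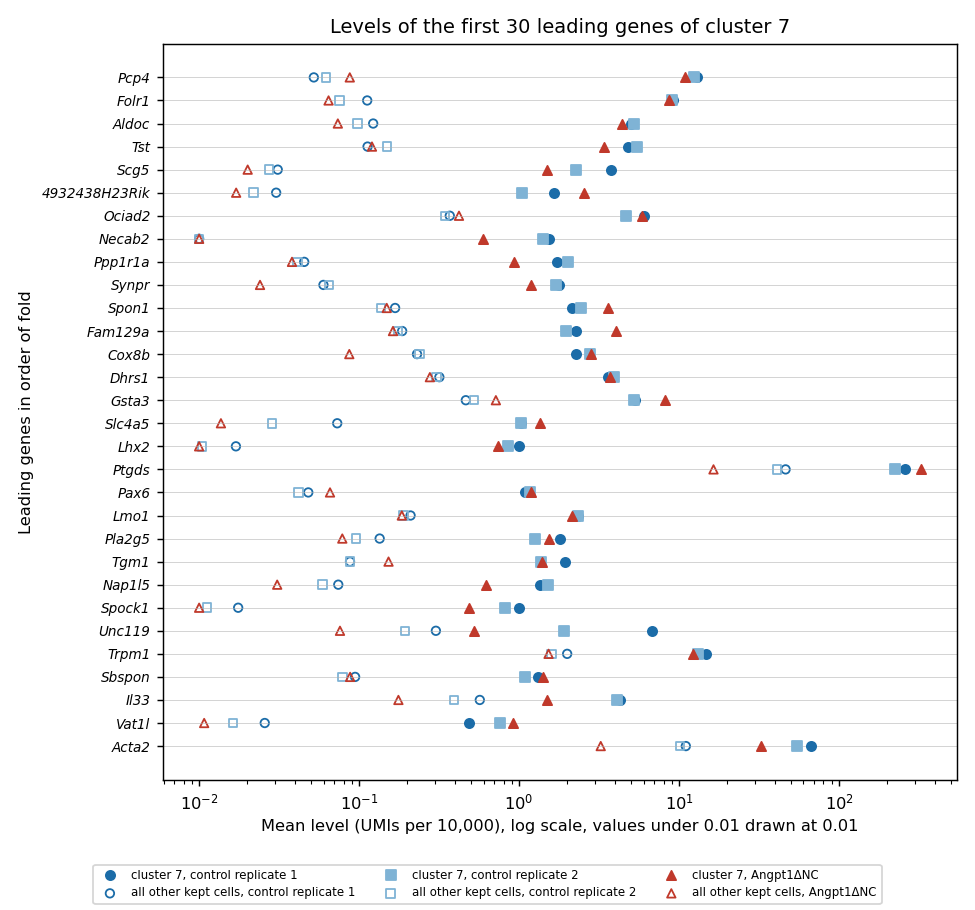
Mean level in UMIs per 10000 (log axis) of the first 30 leading genes, by library, in cluster 7 (filled) and in all other kept cells (open). Pcp4 lies at 10.9 to 12.9 in the cluster and under 0.1 elsewhere. Unc119 is spread from 0.53 to 6.78 between libraries.

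The promoters of Pcp4, Ptgds and Trpm1, the first leading gene and those of a secreted and a pigment-cell product, are shown because these genes mark the cluster and its sub-groups. Each sequence runs from 250 bases before to 50 bases after the annotated start (RefSeq, GRCm38.p6), at chr16:96467356-96467655 on the plus strand, chr2:25469700-25469999 on the minus strand and chr7:64185209-64185508 on the plus strand. Trpm1 has 2 annotated starts, of which 1 is shown. It was picked because its sequence holds a searched motif, so the motif marked in it follows from that choice. Capitals mark the E-box CACGTG, a sequence bound by MITF and other factors of its class, and the homeodomain core TAATTA, each searched on both strands.
Pcp4: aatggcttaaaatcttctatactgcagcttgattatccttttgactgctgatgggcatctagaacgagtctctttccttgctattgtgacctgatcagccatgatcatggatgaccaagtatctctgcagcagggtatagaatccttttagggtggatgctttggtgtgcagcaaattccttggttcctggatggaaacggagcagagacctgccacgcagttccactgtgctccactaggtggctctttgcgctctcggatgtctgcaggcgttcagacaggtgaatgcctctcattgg
Ptgds: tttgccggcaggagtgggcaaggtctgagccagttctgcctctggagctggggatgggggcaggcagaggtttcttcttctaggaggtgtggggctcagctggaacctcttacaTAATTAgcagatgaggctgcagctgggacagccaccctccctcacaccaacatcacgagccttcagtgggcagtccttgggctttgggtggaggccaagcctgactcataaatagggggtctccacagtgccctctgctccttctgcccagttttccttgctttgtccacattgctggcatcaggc
Trpm1: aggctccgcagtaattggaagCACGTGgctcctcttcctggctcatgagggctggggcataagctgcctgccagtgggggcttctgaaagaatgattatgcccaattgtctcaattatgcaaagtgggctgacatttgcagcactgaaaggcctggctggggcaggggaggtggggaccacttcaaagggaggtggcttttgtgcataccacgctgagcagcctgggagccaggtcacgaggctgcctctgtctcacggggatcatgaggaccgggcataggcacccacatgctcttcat
The E-box occurs in 7.15% of all 32851 promoters of this length and the homeodomain core in 5.29%. Of the 24 leading genes with a promoter in the table, 1 (Trpm1) held CACGTG and 4 (Ptgds, Pla2g5, Lmo1 and Il33) held TAATTA. A gene was counted if any of its promoters, 35 over the 24 genes, held the letters. The percentages are per promoter, so these counts cannot be set directly against them. These are matches of letters, not sites shown to be bound.

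Reclustering the 562 cells, with levels centred per library, gave 11 sub-groups, numbered by size. The markers held up in sub-groups 1 to 8. Sub-groups 1, 3, 6, 7 and 8 had mean Acta2 levels of 55.4 to 121, whereas sub-groups 2, 4 and 5 had Acta2 at 5.79 to 10.3 and Ptgds at 399 to 844. The former are called Acta2-high and the latter Ptgds-high below, by thresholds of 50 for Acta2 and 300 for Ptgds that were chosen after the values were seen. Sub-groups 9, 10 and 11 had neither.

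The Acta2-high cells numbered 314 (55.9% of the cluster). They carried the smooth muscle genes Tagln, at 39.6 to 63.5, and Myh11, at 1.33 to 9.48, together with the melanosome genes Pmel, at 31.9 to 128, and Dct, at 26.9 to 60.9. Sub-group 1 (123 cells) led with Otor, the Wnt inhibitor Wif1, Phlda1 and Myh11, and sub-group 8 (37 cells) with E030030I06Rik, Rprm and the intermediate filament gene Bfsp2. Sub-group 3 (65 cells) led with heat-shock genes, Hspa1a being at 55.9 against 2.8 in the other cluster 7 cells. Sub-group 6 (48 cells) was shallow, with a median of 1322.5 UMIs, and carried the stromal genes Dcn and Igfbp4. The muscle genes Des, Cnn1 and Actg2 were near 0. Acta2, Tagln and Myh11 with pigment genes in the largest set of cells is a pattern that the name ciliary epithelium does not cover.

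The Ptgds-high cells numbered 189 (33.6%). Sub-group 5 (50 cells) was nonpigmented ciliary epithelium-like by the sum of the 8 fixed markers, at 29.6 against 10.0 and 4.89 in sub-groups 2 and 4. Optc, opticin of the vitreous, was at 13.3 in sub-group 5 against 0.22 in the other cluster 7 cells. The water channel Aqp4 was at 2.26 against 0.017, while Dct was at 0.97 and Pmel at 0.19. Not every marker set it apart. Zic1 was a leading gene of sub-group 2. The aquaporin list summed to 2.47 and 3.00 in sub-groups 2 and 4, against 3.32 in sub-group 5, Aqp4 included. Col9a1, the zonule-associated Ltbp2 and the transporter Slc6a13 were among its other leading genes. Sub-groups 2 (77 cells) and 4 (62 cells) kept the pigment genes, with Dct at 52.6 and 75.5, and shared Matn3, at 5.18 and 4.30, and the regulator Zic1, at 1.44 and 0.86. Sub-group 2 also led with Mfap4, the tight junction gene Cldn19 and the beta-defensins Defb2 and Defb9. Sub-group 4 led with Gbp2b, Sfn, Xist, Grem1 and S100b, and 93.5% of its cells came from Angpt1ΔNC.

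The remaining 59 cells (10.5%) went against the label. Sub-group 9 (23 cells) was photoreceptor-like, with arrestin (Sag) at 271 and Prph2, of the outer segment disc rim, at 103, a median depth of 1550 UMIs and at least 2 of the 4 markers in 2 cells. Sub-group 10 (19 cells) was led by haemoglobins, with Hbb-bs at 4970, and by the erythroid enzyme gene Alas2. Sub-group 11 (17 cells) had none of the 4 markers in any cell and was led by Gal, Asb5 and the myogenic regulator Myod1, at 14.7; it is left unnamed. The share of these 3 sub-groups was 11.1%, 11.2% and 8.63% by library, but their makeup differed, since the photoreceptor-like cells numbered 21, 2 and 0.

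**Figure D2:**
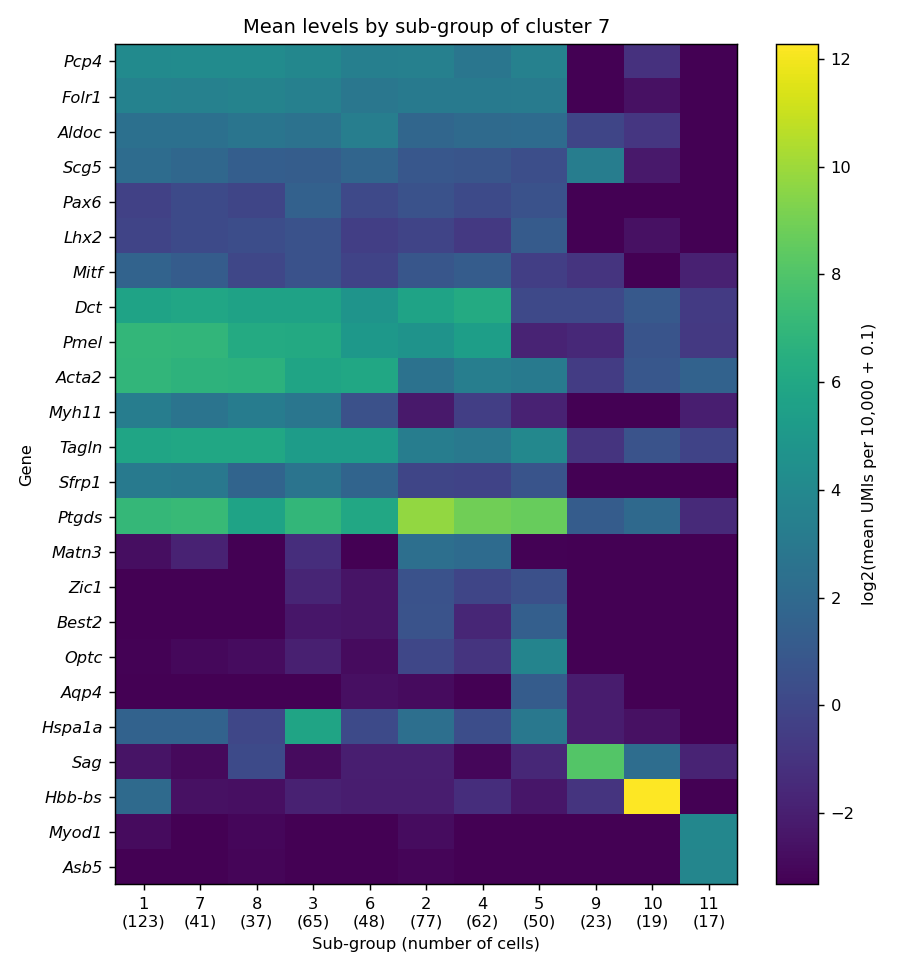
Mean level, as log2 of UMIs per 10000 with 0.1 added, of marker genes (rows) in the 11 sub-groups (columns, with their cell numbers). Pigment genes accompany Acta2 in sub-groups 1, 7, 8, 3 and 6, Optc and Aqp4 stand out in sub-group 5, and Pcp4 and Folr1 are near 0 in sub-groups 9 to 11.

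The make-up of the cluster differed between libraries. Acta2-high cells were 190 of 316 (60.1%, exact interval 54.5 to 65.6) in control replicate 1, 77 of 107 (72.0%, 62.5 to 80.2) in control replicate 2 and 47 of 139 (33.8%, 26.01 to 42.3) in Angpt1ΔNC. Ptgds-high cells were 28.8% (23.9 to 34.1), 16.8% (10.3 to 25.3) and 57.6% (48.9 to 65.9). The knockout library lay outside both controls in each direction, by intervals that cover counting error only, and with 2 libraries against 1 no test of the shares was made. With the levels left uncentred, the Ptgds-high share was 28.2%, 17.8% and 58.3%. Of the 11 sub-groups, 5 (286 cells) took at least 90% of their cells from 1 library, against 1 (23 cells) at resolution 0.3, 5 (239 cells) at resolution 1.0 and 1 (31 cells) without centring. Of the 11 sub-groups, those concerned included sub-group 1 (122 of 123 from control replicate 1) and sub-group 7 (41 of 41 from control replicate 2). Sub-group 4 (58 of 62) and sub-group 8 (34 of 37) came mostly from Angpt1ΔNC. These sub-groups may be libraries rather than cell types. Sub-group 4 held 58 of the 80 Ptgds-high cells of Angpt1ΔNC. Otor of sub-group 1, Bfsp2 of sub-group 8 and Gbp2b, Sfn and S100b of sub-group 4 are also among the genes tested between genotypes. This makes the sizes of these sub-groups unfit for comparison between libraries.

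**Figure D3:**
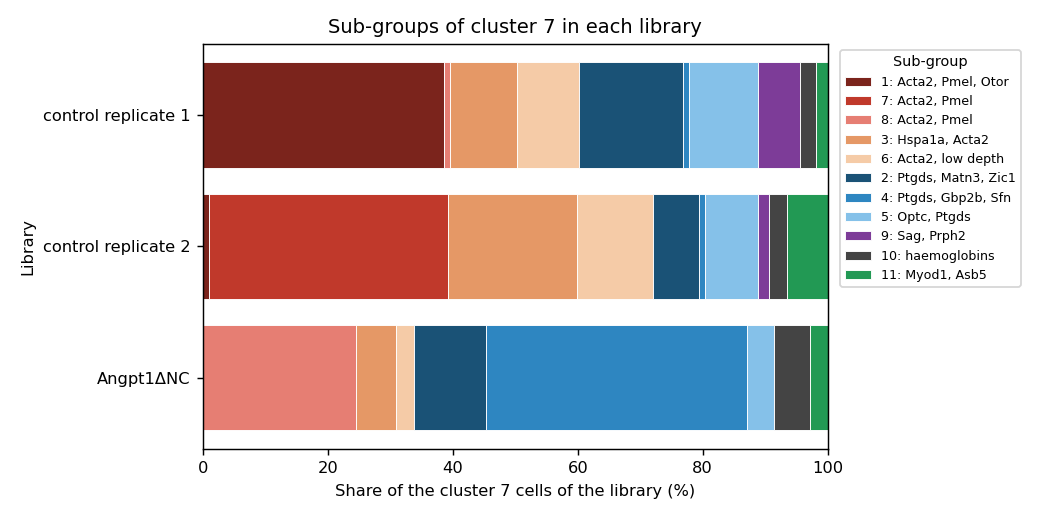
Share of the cluster 7 cells of each library (horizontal axis, percent) in each sub-group. Red and orange bars are Acta2-high, blue bars Ptgds-high. Ptgds-high cells take 57.6% of Angpt1ΔNC against 28.8% and 16.8% of the controls.

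Markers of other cells of the tissue were summed over the fixed lists. The photoreceptor list (8 genes) summed to 63.6, 18.6 and 0.0579 and the haemoglobin list (4 genes) to 169, 252 and 503. The iris muscle list summed to 109, 95.3 and 56.4, against 24.2, 23.5 and 9.08 in all other kept cells, and the pigment list to 158, 144 and 148. The nonpigmented ciliary list summed to 6.36, 3.89 and 4.87. The melanocyte list, which shares Pmel, Dct, Tyrp1 and Mlana with the pigment list, summed to 140, 129 and 129 against 69.4, 67.1 and 56.5 in the other kept cells, while its Sox10 was at or near 0. The list of the retinal pigment epithelium summed to 2.94, 3.07 and 2.30 against 18.5, 8.88 and 1.46, with Rpe65 at or near 0. The stroma, surface epithelium, Schwann cell, immune and endothelium lists summed to less than in the other kept cells of each library. Other lists summed to more. The Muller glia list was at 67.7, 54.8 and 58.0 against 38.7, 38.2 and 33.0. The lens list, with 4 of its 7 genes at 0 throughout, was at 24.4, 32.2 and 23.1 against 18.1, 19.1 and 19.6. The mural list, which shares Acta2 and Myh11 with the iris muscle list, was at 71.7, 58.7 and 35.5 against 19.6, 18.6 and 7.22. The part of these cells in the genotype comparison below was tested only as far as the cells were left out there.

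Several genes of aqueous secretion were measured in every library. The sodium pump subunit gene Atp1b1 was at 2.48, 2.80 and 1.78. Car2 and Car14, carbonic anhydrases, were at 2.11, 1.23 and 1.74 and at 1.81, 1.54 and 1.96. The gap junction gene Gja1, which couples both layers, was at 4.11, 3.68 and 5.06, and the anion channel Best2 at 0.510, 0.537 and 0.363. The knockout level lay between the controls for Car2 and outside them for the others. None of these genes passed the test described next.

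To ask whether deletion of Angpt1 in the neural crest changed expression in cluster 7, UMIs were summed per library and compared by edgeR's quasi-likelihood test, which has 1 residual degree of freedom and takes the lone knockout library to vary like the controls. Of 9766 genes tested, 24 rose (0.246%) and 53 fell (0.543%) at a Benjamini-Hochberg adjusted p under 0.05, 0.788% in all. The knockout value lay outside both controls and the log2 change was at least 1 for each of the 77. Of the 77, 40 also differed from the genotype effect in all other kept cells, by an interaction test in which 203 of 16824 genes passed upward (1.21%) and 178 downward (1.06%), 2.26% in all. The counts changed with the cells taken. Among cells with at least 2 of the 4 markers 180 of 9486 genes rose (1.9%) and 218 fell (2.3%), 4.2% in all, and 66 of the 77 were called there too. Without sub-groups 9, 10 and 11, a choice made after seeing the data, 233 rose and 305 fell, and in male-typed cells 6 rose and 15 fell. Since Ptgds-high cells were 57.6% of the knockout cells, the summed counts carry that difference in make-up, and levels within each form are given below without a test.

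Among the genes that rose, Sfn (chr4:133600556-133602168, GRCm38), the 14-3-3 sigma protein of stratified epithelia, was at 1.13, 0.736 and 7.65, the knockout library standing well above both controls. Its log2 change was 3.28 ± 0.21 (SE, adjusted p = 0.000697 by edgeR), and it differed from the effect in the other cells, where the levels were 20.1, 18.0 and 22.1 (interaction log2 3.09, adjusted p = 1.24e-40). Within Ptgds-high cells Sfn was at 1.87, 0.599 and 12.5, and within Acta2-high cells at 0.886, 0.849 and 1.29. Plet1, a surface protein of epithelial progenitors, was at 0.148, 0.163 and 0.946 (log2 change 3.22 ± 0.31, adjusted p = 0.00676). S100b, a calcium-binding protein best known from glia, was at 0.0416, 0.0387 and 0.501 (log2 change 3.19 ± 0.33, adjusted p = 0.00921). Both lay above the controls within each form. The other Schwann cell genes of the list did not accompany S100b, being too low to be tested.

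Bfsp2, a beaded filament gene best known from the lens, was at 0.493, 0.378 and 1.84. It rose by 1.75 ± 0.23 on the log2 scale (adjusted p = 0.0258), with the higher knockout level in Acta2-high cells (0.683, 0.485 and 2.83) and in Ptgds-high cells (0.284, 0.175 and 1.53). Crb1, which organises the apical junctions of the neuroepithelium, was at 0.177, 0.159 and 0.530 (log2 change 2.16 ± 0.28, adjusted p = 0.0234). It was 0 in Acta2-high cells of all 3 libraries and at 0.560, 0.632 and 0.921 in Ptgds-high cells, so it was detected in the Ptgds-high form alone of these 2 forms. All 4 of Plet1, S100b, Bfsp2 and Crb1 passed the interaction test. Bfsp2 and Crb1 did not pass by DESeq2's Wald test (adjusted p = 0.103 and 0.218), and none of the 4 passed in male-typed cells, where the log2 change was 2.55 for Plet1, 2.72 for S100b, 1.96 for Bfsp2 and 1.87 for Crb1.

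Gbp2b, an interferon-induced GTPase, was at 0.0124, 0 and 2.74 in cluster 7 (log2 change 7.67 ± 0.42, adjusted p = 0.000370) and at 0.0363, 0.0292 and 0.671 in the other cells. It was detected in 72 of 139 knockout cells, and its rise was larger in cluster 7 than in the other cells (interaction log2 3.16, adjusted p = 6.91e-07). Other rises were shared with the whole library or rested on few cells. Il11ra1, an interleukin 11 receptor with near-identical copies in the genome, was at 0.104, 0.0619 and 0.463, against 0.323, 0.326 and 2.32 in the other cells (log2 change 2.98 ± 0.35, adjusted p = 0.0143). Hba-a2, a haemoglobin gene nearly identical to Hba-a1 and therefore uncertain, was at 0.714, 0.970 and 51.9 with UMIs in 7, 3 and 11 cells. It rose by 5.38 ± 0.25 on the log2 scale (adjusted p = 0.000261), while Hba-a1 stood at 45.7, 56.8 and 71.2 and did not pass (adjusted p = 0.859). In the cells with at least 2 of the 4 markers all 4 haemoglobin genes rose, with a median log2 change of 6.24. Yet Hba-a2 was at 0.0260, 0 and 0 within Acta2-high cells and at 0, 0 and 0.0276 within Ptgds-high cells. Of the 19 cells of the haemoglobin-led sub-group 10 only 1 had at least 2 markers. For Hba-a2 that rise therefore rests on few cells, and how many carried it was not tested. Spp1, Ccl17 and Lcn2 also passed, but 95.8%, 93.0% and 91.4% of their knockout UMIs lay in 1 cell each, and without that cell 26, 4 and 15 UMIs were left. Xist was at least 399-fold higher, against a floor of 3 UMIs over the controls (at least 87.1-fold without control replicate 1, and 311-fold without control replicate 2).

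The genes that fell included several that were higher in the Acta2-high than in the Ptgds-high cells of the controls. Sfrp1 (chr8:23411502-23449632, GRCm38), a secreted Wnt antagonist, was at 4.67, 4.67 and 1.32, and fell by 2.15 ± 0.24 on the log2 scale (adjusted p = 0.0118). Within Acta2-high cells it was at 7.12, 6.36 and 2.64, so the knockout library was below both controls there too. Otor (chr2:143078473-143081713), a secreted protein known from the cochlea, was at 0.723, 0.859 and 0.0384 (log2 change -4.62 ± 0.42, adjusted p = 0.00541). In Acta2-high cells it was at 1.17, 1.19 and 0.0475. Fabp5, a fatty acid carrier, was at 1.81, 2.19 and 0.225 (log2 change -3.52 ± 0.30, adjusted p = 0.00375), and at 2.89, 2.93 and 0.288 in Acta2-high cells. It stood at 3.03, 3.37 and 3.58 in the other kept cells, and all 3 of Sfrp1, Otor and Fabp5 passed the interaction test (log2 -1.69, -5.69 and -3.85). Itln1, the lectin intelectin, had 84, 26 and 0 UMIs and was at least 18.5-fold lower, against a floor of 3 UMIs. Tm4sf1 fell as well (log2 change -3.10 ± 0.32, adjusted p = 0.00921), but 68.5% of its UMIs in control replicate 2 lay in 1 cell.

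**Figure D4:**
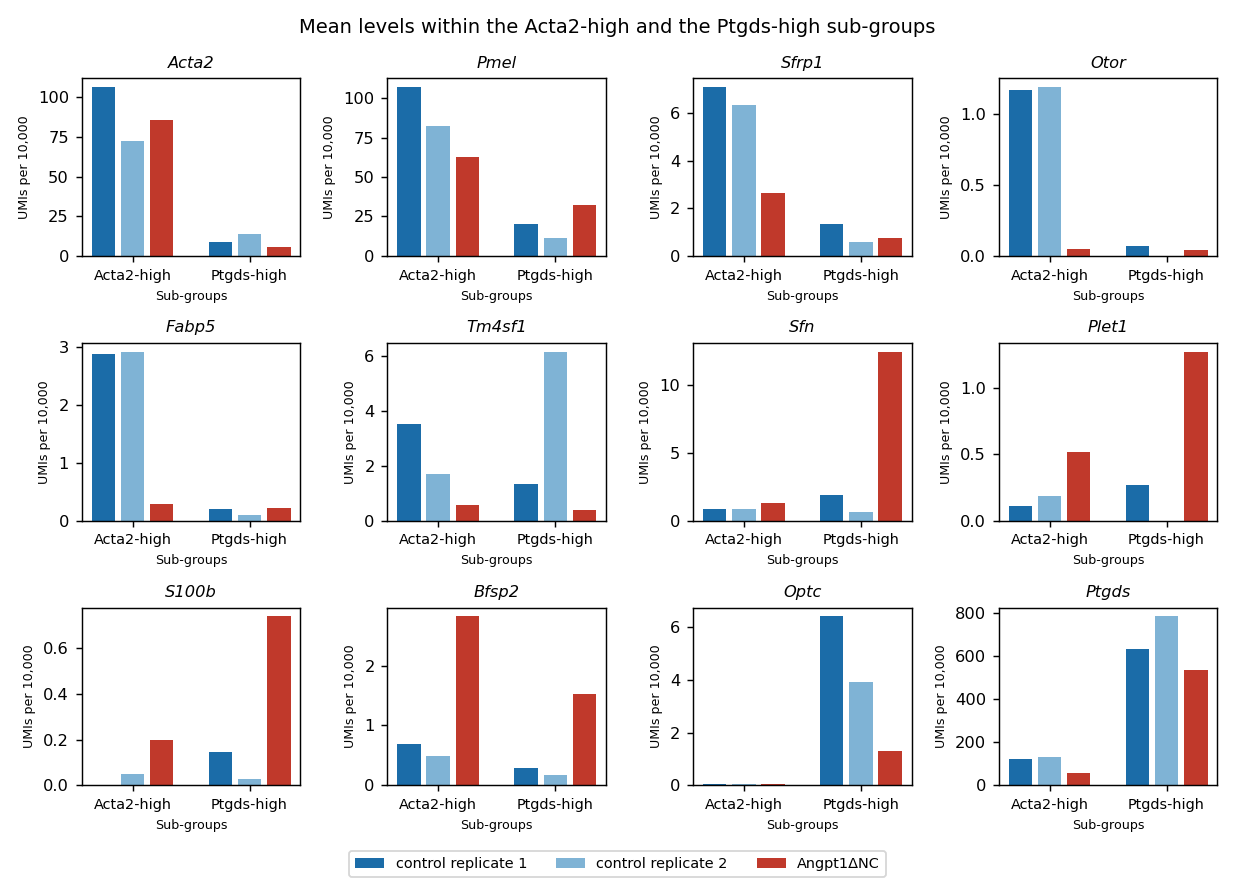
Mean level in UMIs per 10000 of 12 genes in the Acta2-high and the Ptgds-high cells of each library (bars start at 0; 1 library each, so no error bar). Sfrp1, Otor and Fabp5 are lower in Angpt1ΔNC within Acta2-high cells, and Sfn reaches 12.5 in the Ptgds-high cells of Angpt1ΔNC. Acta2 itself is at 107, 72.6 and 85.5 within Acta2-high cells.

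Falls that were seen in the whole library made up another part. Gm10260 had 558, 205 and 1 UMIs in cluster 7, a ratio of 384 (counting interval 68.7 to 15193), and stood at 3.92, 4.99 and 0.0188 in the other cells. BC023719, an antisense transcript whose reads could belong to its overlapping partner, had 117, 29 and 0 UMIs and was at least 24.5-fold lower, with 0.634, 0.580 and 0.00639 in the other cells. Gm11361 had 134, 31 and 3 UMIs, a ratio of 27.7 (counting interval 9.31 to 136). None of these 3 passed the interaction test, so a fall particular to cluster 7 was not shown.

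The rod genes fell, and the knockout library held none of the 23 photoreceptor-like cells. They were lower in the other kept cells of that library too. There Prph2 stood at 0.0870, 0.0179 and 1.81e-05, Sag at 0.214, 0.0688 and 0.0160, and Pdc at 0.0371, 0.0132 and 0. Sag passed the interaction test. Prph2 and Pdc did not, so a fall particular to cluster 7 was not shown for them. In cluster 7 Prph2 had 370, 48 and 0 UMIs and was at least 70.2-fold lower. Sag fell by 6.82 ± 0.78 on the log2 scale (adjusted p = 0.0124), and Pdc had 238, 35 and 1 UMIs, a ratio of 137 (counting interval 24.5 to 5449). Without sub-groups 9, 10 and 11 the log2 change shrank to -3.08 for Sag and -2.99 for Pdc, with adjusted p of 0.000852 and 0.385 by edgeR, and Prph2 passed (adjusted p = 0.0206). With equal numbers of cells and in male-typed cells none of these 3 passed. The bound for Prph2 is carried by control replicate 1, being 36.9 without it and 79.5 without control replicate 2, and the ratio for Pdc is 80.6 and 153. In all, 6 of the 8 genes of the photoreceptor list passed. The median log2 change over all 8 was -7.10, against -0.02 over all genes tested.

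**Figure D5:**
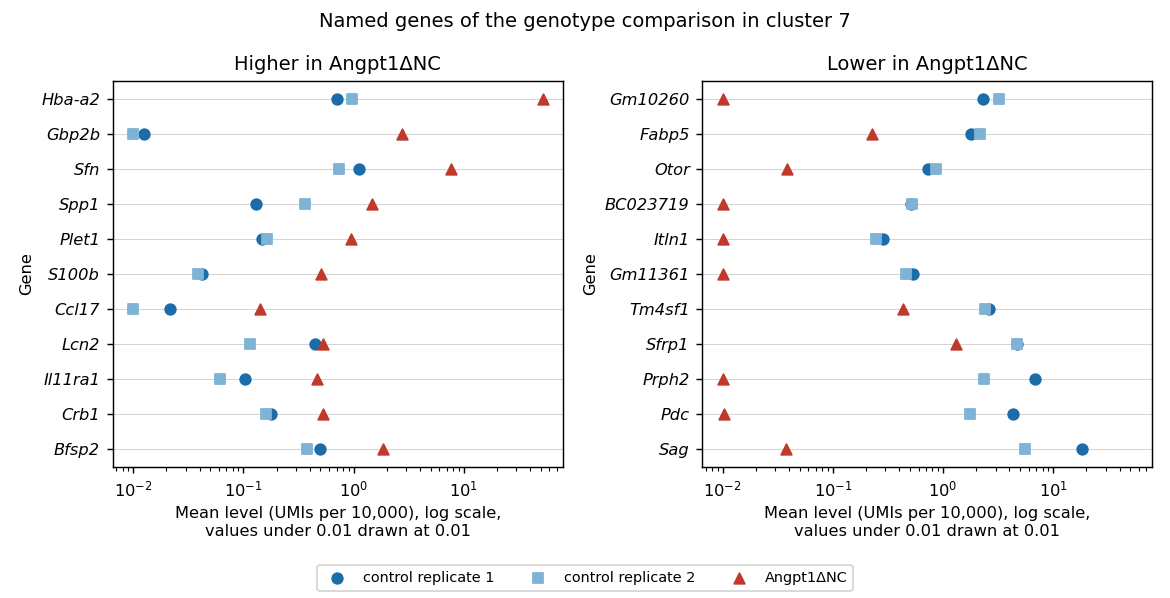
Mean level in UMIs per 10000 (log axis, values under 0.01 drawn at 0.01) of the named genes that rose (left, without Xist) and fell (right), by library. Every Angpt1ΔNC point lies outside both control points, by a small margin for Lcn2.

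By fixed list, none of the 4 markers passed the test, their median log2 change being -0.37. Pcp4 had a log2 change of -0.49 ± 0.20 (adjusted p = 0.347), Folr1 of -0.26 ± 0.20 (adjusted p = 0.641) and Aldoc of -0.16 ± 0.21 (adjusted p = 0.797). Scg5, whose knockout level of 1.49 was below both controls, had a log2 change of -0.79 ± 0.27 (adjusted p = 0.257), which passed without sub-groups 9, 10 and 11 (adjusted p = 0.0357 by edgeR). In the cells with at least 2 of the 4 markers, a setting planned beforehand, none of the 4 passed. Those cells were chosen by detection of these same 4 genes, so that result cannot decide whether the genes differed. Of the first 30 leading genes 2 fell. They were Necab2, a neuronal calcium-binding protein, at 1.53, 1.41 and 0.592 (log2 change -1.60 ± 0.25, adjusted p = 0.0395), and the alarmin Il33, at 4.29, 4.10 and 1.49 (log2 change -1.89 ± 0.23, adjusted p = 0.0187). None of the 8 nonpigmented ciliary genes, the 10 pigment genes or the 5 iris muscle genes tested passed. Acta2 came nearest among the muscle genes, with a log2 change of -1.20 ± 0.22 (adjusted p = 0.0654) that passed in the cells with at least 2 markers (log2 change -1.28, adjusted p = 0.000976). Zic1 and Aqp1, at 0.388, 0.264 and 0.679 and at 0.890, 0.581 and 1.85, did not pass over all cells and passed in those cells, with rises of 1.16 and 1.41. Acta2 is a gene of the Acta2-high form and Zic1 of the Ptgds-high form, whose shares differed between the libraries.

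Among the regulators and carriers a few single genes passed. Foxd1, a forkhead factor that marks the temporal side of the optic cup, was at 0.337, 0.184 and 0.0187, with a log2 change of -3.60 ± 0.49 (adjusted p = 0.0264), and was the only one of 20 transcription factors tested to pass. Its interaction with the other kept cells, at 0.0688, 0.0530 and 0.00814, did not pass (adjusted p = 0.762). Slc4a4, a sodium bicarbonate cotransporter, was at 0.969, 0.933 and 0.354, and fell by 2.19 ± 0.32 on the log2 scale (adjusted p = 0.0333), the only one of 13 ion transport genes tested. That fall differed from the other cells (interaction log2 -2.24, adjusted p = 5.92e-08), where Slc4a4 was at 0.397, 0.408 and 0.378. Slc4a4 was also a leading gene of the heat-shock sub-group 3, at 2.63 against 0.571 in the other cluster 7 cells. That sub-group held 10.8%, 20.6% and 6.47% of the cluster by library, and its part in the fall was not tested. The related Slc4a5 did not pass (log2 change 0.71 ± 0.23, adjusted p = 0.241). Adrenomedullin (Adm), at 0.707, 0.434 and 0.103, and transferrin (Trf), at 0.305, 0.265 and 0.0255, each fell alone in their lists of 10 peptide secretion and 19 antioxidant genes tested. None of the 9 sodium pump genes, 7 carbonic anhydrases, 4 aquaporins, 11 junction genes, 18 vitreous matrix genes or 18 stress genes tested passed, the stress list having a median log2 change of -0.59.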

How the data were processed

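The authors deposited 1 matrix of UMI counts per library (10x Genomics) and a table of cluster identities for kept cells. The submitters' processing notes name Cell Ranger 2.1.1, Seurat 3.1.3 and mm10. The study's methods kept cells with at least 200 genes, at least 1000 UMIs and at most 10% mitochondrial UMIs, called doublets before clustering, integrated the libraries and left Angpt1 and sex-linked genes out of clustering. No doublet caller was run here.

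UMIs per 10000 were computed in each cell and averaged to give a level. Intervals are exact Clopper-Pearson at 95%, and the floor is 3 counts. Sub-groups came from scanpy 1.11.5 (2000 variable genes, 15 principal components, Leiden resolution 0.5). Deposited counts were summed per library and tested with edgeR 4.0.16 (TMM, filterByExpr, quasi-likelihood), with DESeq2 1.42.0 as an alternative. The interaction test used cluster 7 and all other kept cells with library as a block. Standard errors are the log2 change over the root of F. Scripts were tested on simulated data. Gene positions are GENCODE on GRCm38. Named genes are the 12 per direction with the smallest adjusted p, a log2 change of at least 1 and a knockout level outside both controls, plus listed and leading genes, some of which are not reported here. The members and lists were chosen with earlier results of these data known. Nothing says that libraries of 1 group came from separate litters. The p-values rest on the spread between the control pools and on a variance trend shared over genes. The prior degrees of freedom were 6.85 in the main fit and infinite in the interaction fit. Interaction p-values therefore use the shared trend and not the spread of each gene. No spread between knockout pools was measured.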

Additional observations from a re-analysis of the deposited data

Results flagged for a closer look

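For 14 genes named in the genotype comparison, the change in cluster 7 differed from the change in all other kept cells (edgeR interaction with library as a block, Benjamini-Hochberg adjusted p under 0.05). The change was more positive in cluster 7, as an interaction log2, for Gbp2b (3.16), Sfn (3.09), Spp1 (4.51), Plet1 (2.65), S100b (3.00), Ccl17 (3.23), Crb1 (4.52) and Bfsp2 (1.46). It was more negative for Fabp5 (-3.85), Otor (-5.69), Tm4sf1 (-2.54), Sfrp1 (-1.69) and Sag (-4.10). Hba-a2 rose in both classes of cells and less so in cluster 7 (-1.17). For Spp1 and Ccl17, over 90% of the knockout UMIs of the cluster lay in 1 cell, and for Tm4sf1 68.5% of those of control replicate 2.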

How the results depend on the processing

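The number of genes called in cluster 7 depended on the cells and the filter. With no filter on low counts 279 rose and 347 fell, with cells of at least 2 markers 180 and 218, and without sub-groups 9, 10 and 11 (added after seeing the data) 233 and 305. With equal numbers of cells 11 rose and 20 fell, with male-typed cells 6 and 15, and by DESeq2's Wald test 13 rose. DESeq2 size factors gave 23 and 52. In the main test 1297 genes had an unadjusted p under 0.05. The interaction gave 145 to 261 rises and 178 to 186 falls over its alternatives. All 77 called genes kept their sign without control replicate 1 and without control replicate 2, where no test could be made. Among the named genes Lcn2 turned to -0.98 in male-typed cells. There 10 others no longer passed. Their log2 changes were 1.21 for Spp1, 2.55 for Plet1, 2.72 for S100b, 2.64 for Il11ra1, 1.87 for Crb1, 1.96 for Bfsp2, -8.21 for Itln1, -8.08 for Prph2, -7.89 for Pdc and -9.72 for Sag. Calls were also lost for Lcn2, Il11ra1, Prph2, Pdc and Sag with equal cells, for Lcn2, Il11ra1, Crb1 and Bfsp2 by DESeq2, and for 1 gene (Pdc) with 2-marker cells and without sub-groups 9, 10 and 11. Without control replicate 1 the log2 change was 4.46 for Spp1, 3.55 for Ccl17, -6.98 for Gm10260, -3.90 for Otor, -3.69 for Gm11361, -4.47 for Pdc and -5.32 for Sag. Without control replicate 2 it was 6.79 for Gbp2b, 4.07 for Ccl17, -7.13 for Gm10260 and -5.91 for Pdc. Fitted changes of Xist, BC023719, Itln1 and Prph2, at 0 UMIs in a group, also moved with each control left out, since they depend on the prior count.

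Over all called cells with at least 1000 UMIs the share of the cluster was 2.95%, 0.881% and 1.65%. Thinning to 2000 UMIs lowered the share of Angpt1-positive cells to 1.16% and 0.507% in control replicate 1 and Angpt1ΔNC. Adding 1 rather than 0.1 to the levels kept 16 of the first 30 leading genes, and a detection minimum of 10% kept 24. There were 7 sub-groups at resolution 0.3, 14 at 1.0 and 9 without centring. The Ptgds-high share was 28.2% to 28.8%, 16.8% to 18.7% and 57.6% to 58.3% by library over these settings. No paired analysis was possible because the labels give the libraries no replicate numbers that pair controls with the knockout. Control replicate 2 gave the fewest cells (107) and UMIs (708774).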

Other observations

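Some listed genes did not pass in the filtered edgeR test of all cluster 7 cells but passed among the cells with at least 2 of the 4 markers, with adjustment over all 9486 genes tested. Those named here passed without sub-groups 9, 10 and 11 and with no filter on low counts as well. The regulator Sox9, at 1.04, 0.965 and 2.08 UMIs per 10000 in all cluster 7 cells of control replicate 1, control replicate 2 and Angpt1ΔNC, rose by 1.17 on the log2 scale (adjusted p = 0.00456). The tight junction gene Cldn19, at 0.375, 0.111 and 0.771, rose by 1.49 (adjusted p = 0.00417), and the matrix gene Spon1, at 2.14, 2.44 and 3.60, by 1.10 (adjusted p = 0.00326). The collagen gene Col1a1, at 1.22, 0.961 and 2.07, rose by 1.12 (adjusted p = 0.00813). The actin-binding muscle gene Tagln, at 37.0, 36.5 and 20.5, fell by 1.14 (adjusted p = 0.00225). Of 18 stress genes 5 fell, among them Hspa1a, at 6.69, 18.5 and 6.77, with a log2 change of -1.62 (adjusted p = 0.0172), for which the knockout level over all cluster 7 cells lay between the controls. Over all 9486 genes tested in these cells 218 fell (2.3%). Heat-shock genes led sub-group 3, which held 10.8%, 20.6% and 6.47% of the cluster 7 cells by library. What part sub-group 3 had in the stress genes was not tested. The share of Ptgds-high cells, which carry Cldn19 in sub-group 2 and little Tagln, was higher in Angpt1ΔNC, and its part in these values was not tested.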
